A study of Mus musculus with 16 samples.

Results

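MHC class II molecules are the surface proteins that present peptides to CD4+ T cells. The 9 genes described here are H2-Aa, H2-Ab1 and H2-Eb1 (chains of the presenting molecules), Cd74 (the invariant chain), H2-DMa, H2-DMb1, H2-Oa and H2-Ob (chains of the peptide-exchange proteins) and Ciita (the class II transactivator). They were taken by gene name from the array annotation, with all 15 of their probes. Of these probes, 12 were well above background on at least 4 of 16 arrays, and 8 of the 9 genes entered the test, among 15399 genes in all. H2-Ob did not.

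The samples were B16-BL6 melanomas, a tumour line of C57BL/6 origin, from male C57BL/6J mice aged 8 weeks, with 4 tumour preparations in each of 4 groups. ALA+X-ray tumours received 5-aminolevulinic acid (ALA, a heme precursor) locally at 50 mg/kg before fractionated X-ray irradiation. X-ray tumours were irradiated without ALA, ALA tumours received ALA without irradiation, and control tumours received neither; the dose of X-rays is not given in the sources used here. The labels name no transgene or deletion in any group, and mice of this strain keep their own immune cells. Labels number the preparations 1 to 4 in each group without stating that each came from a separate mouse, so p-values measure the spread between these preparations. The design asks what ALA adds to irradiation.

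In antigen-presenting cells such as dendritic cells, macrophages and B cells, class II alpha and beta chains pair in the endoplasmic reticulum with the invariant chain, which fills the groove and steers the complex to endosomes. Cathepsins trim the invariant chain, the DM heterodimer removes its last fragment and loads peptide, and the DO heterodimer restrains DM. Ciita, itself induced by interferon gamma in many cell types, is recruited to the X and Y boxes upstream of class II genes and switches the family on. Most tumour cells express little class II unless exposed to interferon gamma.

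Levels are given as log2 signal relative to the 75th percentile of the same array, so that 1 unit is a 2-fold difference and values are compared within a probe only. The 75th percentile was 213 to 521 in linear intensity. Spots well above background made up 44.3% to 53.6% of an array, with 0 saturated. Each slide carried 1 array of each group, and slide and replicate number were the same. Each group kept 1 position on all slides, so position and treatment cannot be told apart. The 7 H2 genes lie in the mouse MHC on chromosome 17, Cd74 on chromosome 18 and Ciita on chromosome 16. The melanocyte markers, all 9 tested, had mean levels of 4.81 to 5.31 in ALA+X-ray, 4.98 to 5.18 in X-ray, 4.96 to 5.07 in ALA and 4.97 to 5.14 in control arrays. The X-ray 1 array stood apart from the other X-ray arrays in class II level, and the class II comparisons with X-ray tumours are given with and without it. Over all genes, leaving it out took the number that passed to 1093 in ALA+X-ray against X-ray, against 318 with it, to 1 in X-ray against control, against 519, and to 762 in the interaction, against 189. Skeletal muscle markers (10 genes) ran from -4.10 to 4.77 in ALA+X-ray, -4.71 to -0.46 in X-ray, -4.82 to -2.53 in ALA and -4.24 to 3.29 in control arrays. Their part in the results was not tested.

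Probe sequences of 60 bases are shown for the 3 presenting chains and H2-DMb1 as examples of the oligos on the array. Those of H2-Aa and H2-Eb1 give the values below, whereas those of H2-Ab1 and H2-DMb1 are second probes of their genes. The array annotation supplies their mm9 positions and names no exon.

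H2-Aa, chr17:34420627-34420686, minus strand: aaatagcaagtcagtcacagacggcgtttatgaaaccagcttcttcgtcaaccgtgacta
H2-Ab1, chr17:34401723-34401782, plus strand: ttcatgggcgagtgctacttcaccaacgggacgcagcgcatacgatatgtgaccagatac
H2-Ab1, chr17:34404388-34404447, plus strand: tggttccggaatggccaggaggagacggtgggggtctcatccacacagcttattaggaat
H2-Eb1, chr17:34452050-34452511, plus strand: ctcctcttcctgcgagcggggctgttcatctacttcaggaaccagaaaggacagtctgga
H2-DMb1, chr17:34294265-34294324, plus strand: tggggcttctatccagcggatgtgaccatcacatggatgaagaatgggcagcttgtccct

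The annotated range of the H2-Eb1 probe is longer than the probe itself. The H2-DMb1 probe printed is annotated to both H2-DMb1 and its close copy H2-DMb2, so signal from the pair cannot be told apart on it; the other H2-DMb1 probe, at chr17:34297109-34297168, is annotated to H2-DMb1 alone, was the brighter of the pair and gives the gene's values below. H2-Ab1 is likewise represented below by another, brighter probe at chr17:34406059-34406118.

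Promoter sequence is shown for the 4 tested class II genes that had a match to a class II element. RefSeq windows (GRCm38.p6) were matched for 6 of the 9 genes, without H2-Ab1, Cd74 and Ciita. The letters searched on both strands were TNGNAAC, then 3 bases of any kind, then TGATG for the X box, and CTGATTGG for the Y box. They were chosen after these promoters had been read, so the matches, which do not overlap each other, are a description only. Each line holds the 200 bases before the annotated start, with matches in capitals.

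H2-Aa, chr17:34287824-34288023, minus strand: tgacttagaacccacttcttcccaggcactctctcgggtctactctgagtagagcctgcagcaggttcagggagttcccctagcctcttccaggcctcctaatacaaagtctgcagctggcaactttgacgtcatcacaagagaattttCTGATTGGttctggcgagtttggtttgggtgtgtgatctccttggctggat
H2-Eb1, chr17:34305667-34305866, plus strand: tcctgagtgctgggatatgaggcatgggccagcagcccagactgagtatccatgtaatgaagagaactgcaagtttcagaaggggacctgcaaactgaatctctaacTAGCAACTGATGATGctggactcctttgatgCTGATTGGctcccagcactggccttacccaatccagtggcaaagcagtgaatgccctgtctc
H2-DMb1, chr17:34152991-34153190, plus strand: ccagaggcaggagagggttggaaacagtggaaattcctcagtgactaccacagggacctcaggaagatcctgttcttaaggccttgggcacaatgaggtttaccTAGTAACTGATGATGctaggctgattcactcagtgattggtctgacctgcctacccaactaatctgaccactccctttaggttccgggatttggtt
H2-Oa, chr17:34092179-34092378, plus strand: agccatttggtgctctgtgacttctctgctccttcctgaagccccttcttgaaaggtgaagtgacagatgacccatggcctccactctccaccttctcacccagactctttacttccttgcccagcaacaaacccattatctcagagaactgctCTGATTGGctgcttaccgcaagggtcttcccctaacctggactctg

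Of 32851 promoter windows of the same length, 0.0791% held the X box letters and 4.1% the Y box letters. H2-Eb1 held both, the X box beginning 93 and the Y box 62 bases before the start, with 16 bases between them. H2-DMb1 held the X box letters 96 bases before its start, and H2-Ob 89 bases before its start. H2-Aa and H2-Oa held the Y box letters, 51 and 46 bases before their starts. Neither H2-DMa window held either, which says only that these letters are not there. Both motifs together were in 0.0152% of windows, which belong to 3 genes.

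The presenting chains and the invariant chain were highest on average in ALA+X-ray tumours. H2-Aa, the alpha chain of the A molecule, stood at -0.96, 1.38, 0.56 and 1.34 in ALA+X-ray replicates 1 to 4, at 1.36, -2.85, -3.77 and -4.18 in X-ray, at -3.16, -2.38, -3.46 and -5.26 in ALA, and at -4.22, -2.56, -1.23 and -0.25 in control. All 4 ALA+X-ray values were above all 4 ALA values, whereas X-ray 1 was as high as the highest ALA+X-ray tumours and control 4 was above ALA+X-ray 1. H2-Aa was well above background on 4 ALA+X-ray, 3 X-ray, 2 ALA and 3 control arrays.

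H2-Ab1, the beta chain that pairs with H2-Aa, stood at 1.67, 3.86, 3.35 and 4.26 in ALA+X-ray replicates 1 to 4, at 3.86, 0.03, -1.05 and -1.88 in X-ray, at -0.60, 0.26, -1.12 and -2.37 in ALA, and at -1.07, 0.14, 1.25 and 2.42 in control. H2-Eb1, the beta chain of the E molecule, stood at 0.08, 2.03, 1.08 and 2.32 in ALA+X-ray, at 2.18, -1.65, -2.59 and -3.52 in X-ray, at -2.65, -1.10, -2.18 and -4.66 in ALA, and at -3.12, -1.44, -0.45 and 0.68 in control. Its alpha chain partner H2-Ea, which C57BL/6 mice do not express because of a deletion in its promoter, was well above background on 0 arrays. Cd74, the invariant chain, stood at 1.45, 3.19, 2.69 and 3.44 in ALA+X-ray, at 3.63, -0.31, -1.15 and -2.37 in X-ray, at -1.47, -0.09, -1.06 and -2.20 in ALA, and at -2.06, -0.31, 0.93 and 1.68 in control. These genes shared the pattern of H2-Aa: replicate 1 was the lowest ALA+X-ray tumour, X-ray 1 lay far above the other X-ray tumours, and controls and ALA+X-ray overlapped. The group means of Cd74 were 2.69 ± 0.89 in ALA+X-ray, -0.05 ± 2.59 in X-ray, -1.20 ± 0.88 in ALA and 0.06 ± 1.63 in control tumours (SD, n = 4 each), and the order of the last 3 groups is within their spread.

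**Figure D1:**
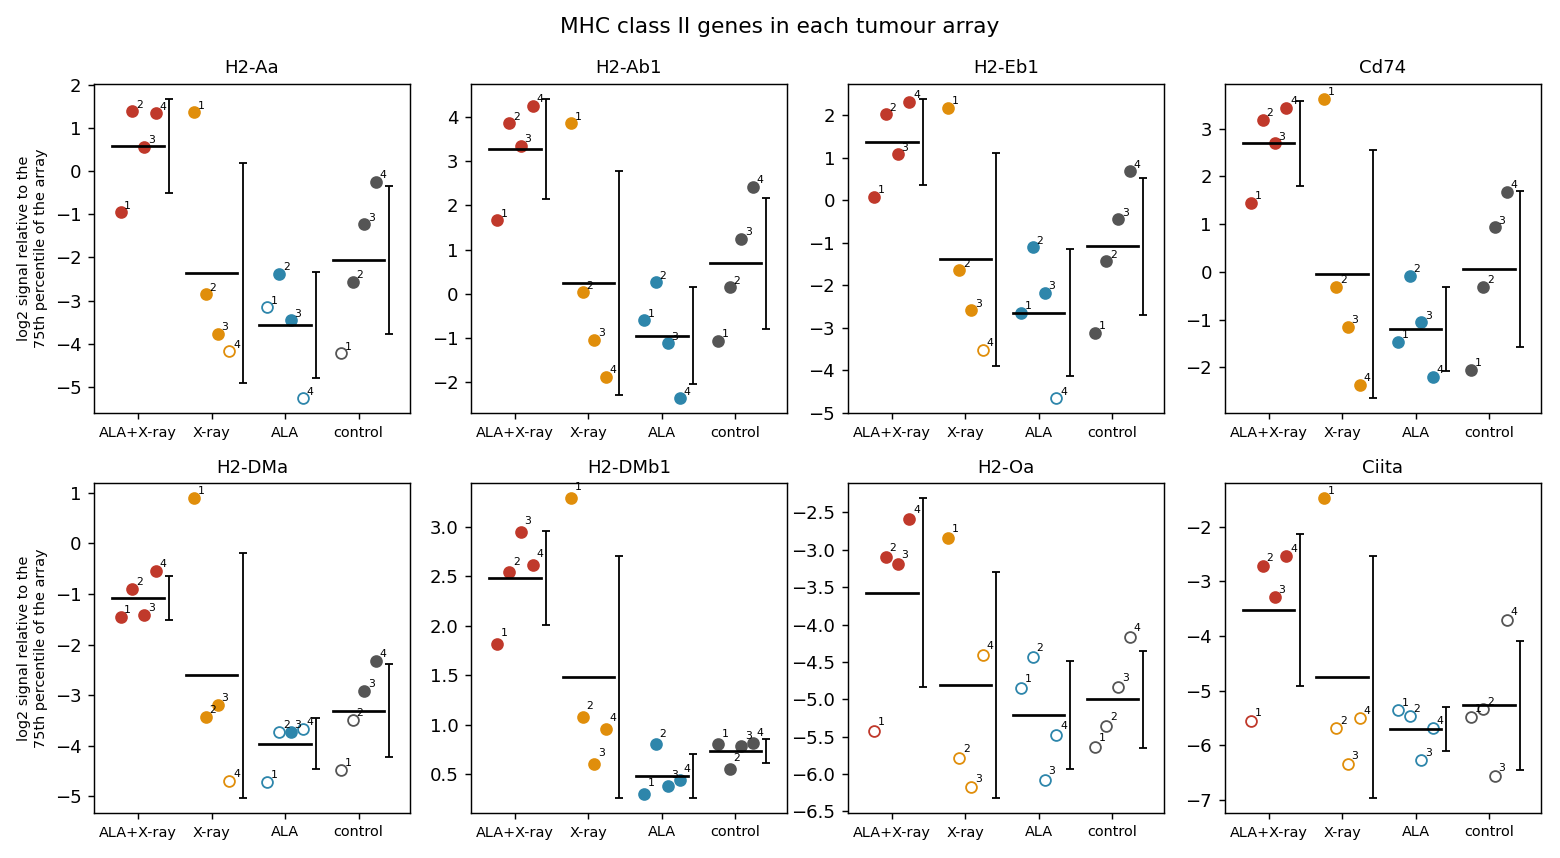
Log2 signal of the 8 tested class II genes (y axis, relative to the 75th percentile of the array) in each of 16 tumour arrays, by group; digits are replicate numbers, open points were not well above background, horizontal lines are means and error bars SDs of 4 arrays. X-ray replicate 1 sits among or above the ALA+X-ray tumours for every gene, and Ciita and H2-Oa are filled on 3 ALA+X-ray arrays and on X-ray 1 only.

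The DM chains had no overlap between ALA+X-ray and control values. H2-DMa, the DM alpha chain, stood at -1.45, -0.91, -1.41 and -0.54 in ALA+X-ray replicates 1 to 4, at 0.89, -3.43, -3.20 and -4.69 in X-ray, at -4.71, -3.73, -3.72 and -3.67 in ALA, and at -4.48, -3.49, -2.92 and -2.33 in control. It was well above background on 4 ALA+X-ray, 3 X-ray, 1 ALA and 2 control arrays. H2-DMb1, the DM beta chain, stood at 1.82, 2.54, 2.95 and 2.62 in ALA+X-ray, at 3.29, 1.08, 0.60 and 0.96 in X-ray, at 0.30, 0.80, 0.38 and 0.44 in ALA, and at 0.80, 0.55, 0.78 and 0.81 in control. All ALA+X-ray values of both lay above all ALA values too, and X-ray 1 was the highest of all 16 arrays.

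Ciita and the DO chains were dim. Ciita stood at -5.55, -2.71, -3.29 and -2.54 in ALA+X-ray replicates 1 to 4, at -1.48, -5.69, -6.34 and -5.50 in X-ray, at -5.36, -5.47, -6.27 and -5.69 in ALA, and at -5.48, -5.34, -6.56 and -3.70 in control. H2-Oa, the DO alpha chain, stood at -5.43, -3.09, -3.19 and -2.59 in ALA+X-ray, at -2.84, -5.79, -6.18 and -4.41 in X-ray, at -4.85, -4.43, -6.08 and -5.48 in ALA, and at -5.64, -5.36, -4.84 and -4.17 in control. Each was well above background on ALA+X-ray replicates 2, 3 and 4 and on X-ray 1, on 0 ALA and on 0 control arrays, so both entered the test only through the groups where they were high. H2-Ob, the DO beta chain, was well above background on 1 control array for 1 of its probes (control 1, -2.87) and on 0 arrays for the other.

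Tumours given ALA with irradiation had more class II mRNA than tumours given ALA alone, for 6 of the 8 genes tested. In ALA+X-ray against ALA, 10.7% of all genes passed as higher and 24.1% in either direction, at an adjusted p under 0.05 (limma, Benjamini-Hochberg over 15399 genes). On the log2 scale H2-Ab1 rose by 4.24 (SE 1.08, 18.9-fold, adjusted p = 0.015) and H2-Aa by 4.14 (SE 1.13, 17.7-fold, adjusted p = 0.0193). H2-Eb1 rose by 4.03 (adjusted p = 0.0217), Cd74 by 3.90 (0.0203), H2-DMa by 2.88 (0.0289) and H2-DMb1 by 2.00 (0.00794). H2-Aa was well above background on 2 of the 4 ALA arrays and H2-DMa on 1, so their fold changes are set partly against background. These 6 had values that did not overlap between the groups, as did 9.29% of all genes in the same direction. The median log2 fold change of these 6 was 3.96, against -0.13 over all genes; they do not include the class II genes that were too dim to measure in ALA tumours. Ciita and H2-Oa, not well above background on any ALA array, did not pass (adjusted p of the fitted difference 0.102 and 0.105). In group means they were at least 1.18-fold and at least 1.14-fold higher, bounds that allow for no sampling error. Such a lower bound sets the mean of the brighter group against the lowest signal called well above background on each array of the dimmer group, or the probe's own signal there where that was higher. Without ALA+X-ray replicate 2, ALA+X-ray replicate 4 or ALA replicate 4, the count of class II genes that passed was 2, 3 and 2. Over all genes the number that passed fell as well, to 2360, 2503 and 2165, against 3713 with all arrays.

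H2-DMb1 was the 1 class II gene of 8 to pass in ALA+X-ray against control, a comparison in which 9.77% of all genes passed as higher and 24.9% in either direction. It rose by 1.75 (SE 0.44, 3.35-fold, adjusted p = 0.0139), and its probe shared with H2-DMb2 gave 1.67 (adjusted p = 0.0347 over all probes). H2-Aa had the highest log2 fold change, 2.65, and did not pass (adjusted p = 0.0969), nor did H2-DMa (0.073). Ciita and H2-Oa were at least 1.18-fold (adjusted p = 0.181) and at least 1.14-fold higher (adjusted p = 0.151). The median over the 6 genes measured in control tumours was 2.53 against -0.08 over all genes, and 2 (H2-DMa and H2-DMb1) had values that did not overlap, as did 8.99% of all genes. Within slides 1 to 4, the H2-DMb1 difference was 1.02, 1.99, 2.17 and 1.80, and that of Cd74 was 3.51, 3.50, 1.76 and 1.76. Without X-ray 1, which lies in neither group but widens the shared estimate of spread, 6 passed, where 10.7% of all genes passed as higher. Without ALA+X-ray 1 the count was 3, with 2 among the 6 genes other than Ciita and H2-Oa, where 14% of all genes passed as higher. Without X-ray 4 the count was 2, where 3765 of all genes passed, against 3828 with it. H2-DMb1 passed in ALA+X-ray against control and against ALA with every array left out in turn.

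Against X-ray alone, 0 of the 8 class II genes passed, where 2.07% of all genes did, 1.3% as higher. Leaving aside Ciita and H2-Oa, which were above background on X-ray 1 alone in this group, the log2 fold changes were 1.00 (H2-DMb1) to 3.05 (H2-Ab1, 95% interval 0.73 to 5.36, adjusted p = 0.122), with a median of 2.76 against -0.08 over all genes. Of these 6, 5 had an unadjusted p under 0.05, as did 23.2% of all genes. The comparison turned on X-ray 1. Within slide 1 the differences of these 6 genes were -2.34 (H2-DMa) to -1.47 (H2-DMb1). Within slides 2, 3 and 4 all 6 were above 0, and those of Cd74 were 3.50, 3.84 and 5.81. Without X-ray 1, 6 of the 8 passed: H2-Ab1 at 4.25 (adjusted p = 0.0088), H2-Aa at 4.18 (0.0129), Cd74 at 3.97 (0.0104), H2-Eb1 at 3.97 (0.0202), H2-DMa at 2.69 (0.00495) and H2-DMb1 at 1.60 (0.00187). In that fit 4.85% of all genes passed as higher. Without the 4 arrays of slide 1, a choice made after seeing the data that removes the highest X-ray and the lowest ALA+X-ray array, these 6 passed again, where 8.75% of all genes passed as higher. Without ALA+X-ray 1 the count was 1, where 7.76% of all genes passed as higher.

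**Figure D2:**
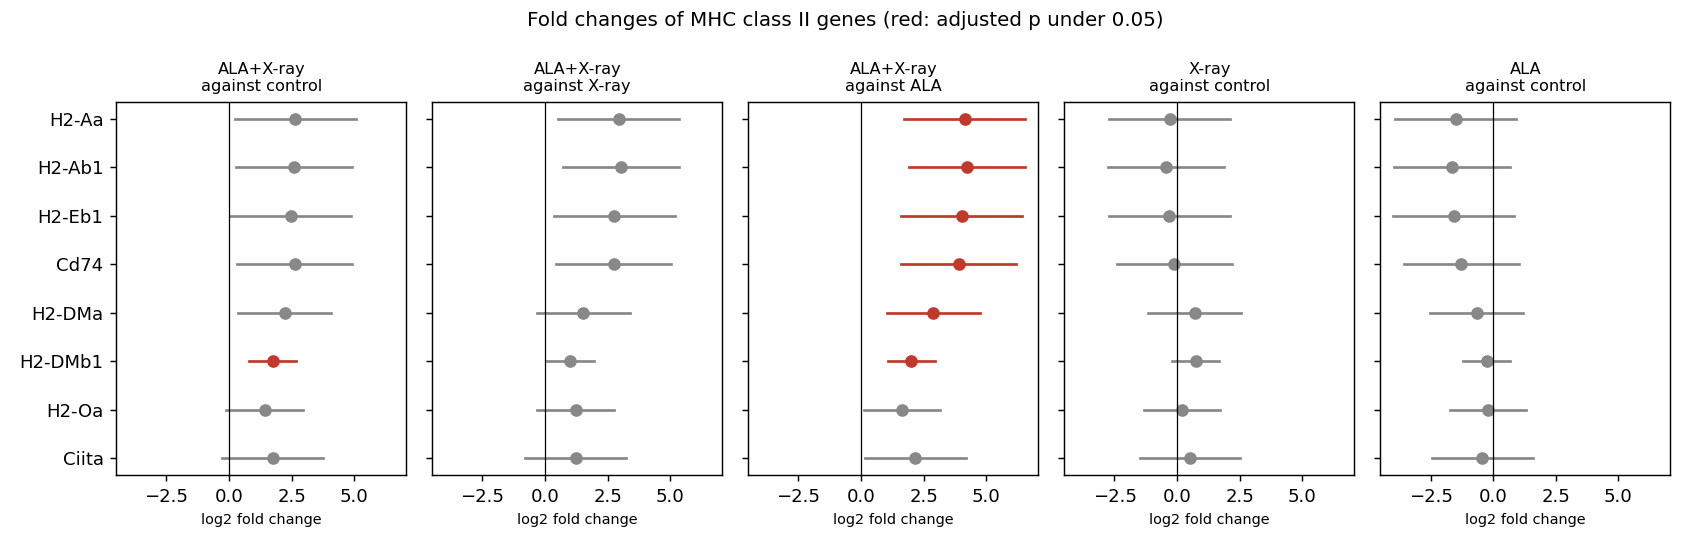
Log2 fold changes (x axis) of the 8 tested class II genes in 5 comparisons with their 95% intervals from the limma fit on 16 arrays; red marks an adjusted p under 0.05. The intervals of 6 genes are red in ALA+X-ray against ALA and that of H2-DMb1 in ALA+X-ray against control, and the points of ALA against control are all below 0 with intervals that cross it. Points of Ciita and H2-Oa are fitted values, not the lower bounds in the text.

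Neither treatment alone moved a class II gene past the threshold. In X-ray against control 0 of 8 passed, where 3.37% of all genes did, and the log2 fold changes of the 6 genes other than Ciita and H2-Oa ran from -0.45 (H2-Ab1) to 0.75 (H2-DMb1, adjusted p = 0.342). The Cd74 difference was 5.68 within slide 1 but -0.01, -2.09 and -4.05 within slides 2 to 4. Without X-ray 1, where 1 of all 15399 genes passed, the fold changes of 5 of these 6 were below 0, with Cd74 at -1.34 (adjusted p = 0.372) and H2-DMb1 the exception at 0.14. In ALA against control 0 of 8 passed, and 0 of all genes (0%; 6.24% had an unadjusted p under 0.05). The same 6 were below 0 there, with a median of -1.38 against 0 over all genes, and H2-Ab1 was the lowest at -1.64 (95% interval -3.96 to 0.68, adjusted p = 0.818). Ciita and H2-Oa were not well above background on any ALA or control array, and X-ray 1 was the 1 X-ray array that measured them, so no fold is given for them.

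The interaction asks whether the step from X-ray to ALA+X-ray differs from the step from control to ALA. It was above 0 for the 6 genes other than Ciita and H2-Oa, with a median of 4.18, and 0 of 8 passed, where 1.23% of all genes did. H2-Ab1 had the highest, 4.69 (SE 1.53, adjusted p = 0.131). Without X-ray 1 the interaction passed for 6 genes, among them H2-Ab1 at 5.89 (adjusted p = 0.0101) and Cd74 at 5.24 (0.0161), and for 4.95% of all genes. Over all genes the count that passed in the interaction was 189, and it ran from 1 to 1065 with single arrays left out.

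The class II genes varied together from tumour to tumour. Over the 16 arrays, H2-Aa, H2-Ab1, H2-Eb1 and Cd74 correlated with each other at r = 0.987 to 0.995, and at 0.977 to 0.991 after the group means were subtracted. Ciita and H2-Oa, well above background on 4 of the 16 arrays, are left out of this description. These are descriptions over arrays that share slides and groups. Probes of the same gene gave r of 0.973 to 0.995 for H2-Aa and H2-Ab1, 0.950 for H2-DMb1, 0.842 for H2-Oa and 0.548 for H2-Ob, whose values lie near background.

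Among 12315 named genes, those most like the mean of H2-Aa, H2-Ab1, H2-Eb1 and Cd74 over the 16 arrays were Il10ra (the interleukin 10 receptor, r = 0.974), Tgfbi (a matrix protein, 0.972), Plbd1 (0.968), Irf5 (an interferon regulatory factor, 0.968) and Sp110 (a nuclear body protein, 0.967). They were followed by Plac8 (0.966), Cd83 (a surface protein that stabilises class II on the cell, 0.963), Gvin1 (an interferon-inducible GTPase, 0.961), Ly6e (0.961) and Cd52 (a leukocyte surface protein, 0.960). With group means subtracted, r was 0.920 to 0.963 for these 10.

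Macrophage markers followed class II across the groups. Of the 15 macrophage and monocyte markers, 14 were tested (Cx3cr1 was on 0 arrays). In ALA+X-ray against ALA 13 passed as higher, where 10.7% of all genes did. Against control 6 of these markers passed as higher (9.77% of all genes) and against X-ray 8 (1.3%), or 12 without X-ray 1 (4.85%). Their mean level was 0.86 to 2.72 in ALA+X-ray, -1.56 to 1.22 in X-ray, -1.98 to -0.34 in ALA and -0.01 to 1.04 in control arrays. The X-ray array at 1.22 was X-ray 1. In a bulk tumour sample, fewer cells of a type and less RNA per cell cannot be told apart, and the part of these cells in the class II results was not tested. Against ALA, 8 of 9 pan-leukocyte, 7 of 8 fibroblast and 2 of 4 tested T and NK cell markers were also higher in ALA+X-ray tumours. That share was 10.7% over all genes. The T and NK cell markers Cd3d, Nkg7 and Gzmb were well above background on 6, 6 and 5 arrays. Among the fibroblast markers Pdgfra and Fap were so on 4 and 5, and the macrophage marker Itgam on 7. Differences of such markers rest partly on signal near background. Of 10 skeletal muscle markers 0 passed against ALA, although all 10 were above 0 with a median log2 difference of 4.32.

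Of 10 dendritic cell markers, 6 were tested, and the defining markers Flt3, Clec9a, Cd209a and Siglech were on 0 arrays. In ALA+X-ray against ALA 2 were higher (Clec10a and Itgax, which macrophages also express) and 1, Xcr1, was lower. Of all genes 10.7% were higher and 13.4% lower there. Against ALA and against X-ray, 3 of the 6 markers were above 0 and 3 below, so their mean does not stand for dendritic cells alone. The mean level of the 6 was -2.37 to -0.70 in ALA+X-ray, -3.39 to -1.36 in X-ray, -3.26 to -2.54 in ALA and -2.96 to -1.74 in control arrays. Of 9 B cell and plasma cell markers, 3 were tested and 0 passed in any comparison; Ms4a1, Cd79a, Pax5, Blk and Jchain were on 0 arrays. Their mean level was -4.48 to -3.31 in ALA+X-ray, -4.78 to -3.78 in X-ray, -4.20 to -3.18 in ALA and -4.43 to -3.25 in control arrays. Interferon response genes, 18 of 18 tested, ran from 0.39 to 1.48 in ALA+X-ray, -1.45 to 2.11 in X-ray, -1.90 to -1.08 in ALA and -2.03 to -0.76 in control arrays. In this list X-ray 1 was the highest of all arrays.

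The relation of each class II gene to 5 marker lists was tested over the 16 arrays, 40 relations in all, with two-sided permutation p-values (100000 permutations, smallest possible 1e-05) adjusted by Benjamini-Hochberg. Cd74 followed the macrophage list (r = 0.897, rho = 0.888, permutation p = 2e-05, adjusted 8e-05), the dendritic list (r = 0.965, rho = 0.962, p = 1e-05, adjusted 5.71e-05 by permutation) and the interferon list (r = 0.913, rho = 0.847, permutation p = 2e-05, adjusted 8e-05). It did not pass with the B cell list (r = 0.249, rho = 0.268, permutation p = 0.352) or the melanocyte list (r = -0.343, rho = -0.324, permutation p = 0.195). Without the 2 arrays farthest from the median of each list, r for Cd74 was 0.905, 0.970 and 0.872 with the first 3 lists.

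The 6 genes other than Ciita and H2-Oa passed with each of those 3 lists by both measures, at r = 0.781 to 0.932 and rho = 0.753 to 0.944 (macrophage), r = 0.819 to 0.978 and rho = 0.706 to 0.982 (dendritic), and r = 0.866 to 0.962 and rho = 0.806 to 0.874 (interferon). They also passed there by both measures with group means subtracted (rho of 0.576 or more) and with slide means subtracted (rho of 0.732 or more). Without the 2 farthest arrays, 6 passed by r with each list, and by rho 6, 5 and 6. With the B cell list 0 of the 6 passed by either measure, at r = 0.059 to 0.322. With the melanocyte list 0 passed over all arrays, at r = -0.361 to -0.113, and 5 of 6 once group means were subtracted, at r = -0.635 to -0.419. Relations of Ciita and H2-Oa rest on 4 of 16 arrays well above background and differed by measure: over all arrays Ciita passed with the interferon list by r (0.855) but not by rho (0.509, permutation adjusted p = 0.0714), and with the B cell list by rho (0.715, permutation adjusted p = 0.00516) but not by r (0.499). H2-Oa passed with the B cell list by both over all arrays (r = 0.583, rho = 0.629) and with group means subtracted. Without the 2 farthest arrays it passed by neither (permutation adjusted p = 0.0771 for r and 0.0622 for rho). With slide means subtracted it passed by rho (0.0273) but not by r (0.062).

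**Figure D3:**
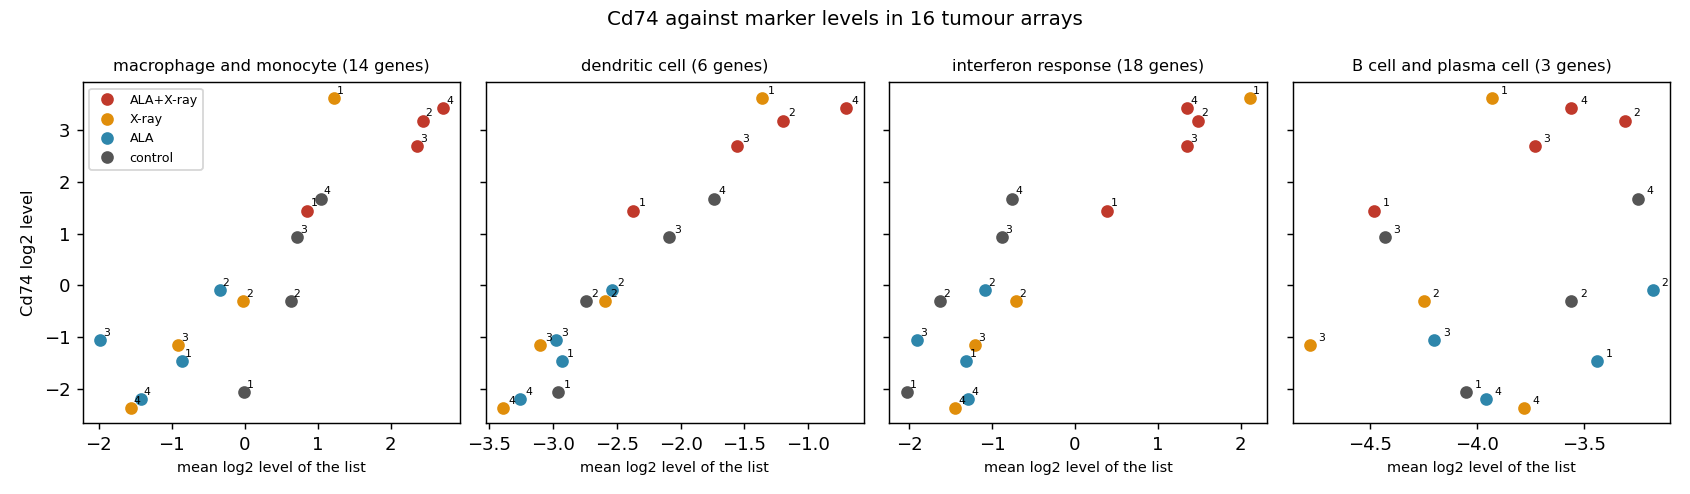
Cd74 log2 level (y axis) against the mean log2 level of 4 marker lists (x axes) in 16 tumour arrays, coloured by group, with digits for replicate numbers. Cd74 rises along the macrophage, dendritic and interferon lists (r = 0.897, 0.965 and 0.913) and less along the B cell list (r = 0.249), and X-ray 1 lies at the top in the interferon panel. The dendritic mean lacks Flt3, Clec9a, Cd209a and Siglech and does not stand for dendritic cells alone.

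Most genes of the list for invariant chain and antigen processing were higher in ALA+X-ray than in ALA or control tumours. Of 8, 5 passed as higher against control, where 9.77% of all genes did, 6 against ALA (10.7%) and 2 against X-ray (1.3%; 3 without X-ray 1, with 4.85% of all genes), and 0 as lower in these comparisons. Cathepsin S (Ctss), the main invariant chain protease of antigen-presenting cells, had a mean level of 6.41 in ALA+X-ray, 2.91 in X-ray, 2.14 in ALA and 4.22 in control tumours. Its log2 fold change was 4.27 against ALA (SE 0.67, adjusted p = 0.00233), 3.50 against X-ray (0.0328) and 2.20 against control (0.0299), and ALA+X-ray values lay above all others in each. Cathepsin L (Ctsl) rose by 1.07 against ALA, 1.03 against X-ray and 1.08 against control. Legumain (Lgmn), cathepsin D (Ctsd) and cathepsin B (Ctsb) rose against control by 1.05, 0.93 and 0.73, and against ALA by 1.11, 0.70 and 0.70. The intramembrane protease Sppl2a, which clears the last invariant chain stub, rose against ALA by 0.50. The list had a median of 0.70 against ALA, where that of all genes was -0.13. Ctsd also passed in X-ray against control, at 0.60 (adjusted p = 0.0273), but not without X-ray 1 (0.58, 0.0703). Ctss passed in the interaction, at 5.58 (0.0272), and without X-ray 1 at 6.37 (0.000833).

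Of 3 regulators of class II at the cell surface, 2 were higher in ALA+X-ray than in ALA tumours, and 0 passed against control or X-ray. The ubiquitin ligase Marchf1, which removes class II from the surface, rose against ALA by 3.78 (adjusted p = 0.00858) and Cd83, which opposes it, by 3.90 (0.0126). Against control their fold changes were 2.28 (0.061) and 2.34 (0.0833), and Marchf8, the remaining gene of that list, did not pass in either. Without X-ray 1, 2 of the 3 passed as higher against control and 2 against X-ray, where 10.7% and 4.85% of all genes did. Of 6 co-stimulatory genes 4 were tested, of which Cd86 and Cd40 were well above background on 4 arrays each and on 0 ALA and 0 control arrays, so that both entered the test only through the groups where they were high. In group means Cd86, a ligand of the T cell receptor CD28, was at least 1.60-fold higher in ALA+X-ray than in ALA tumours. Against control tumours it was at least 1.61-fold higher. The adjusted p-values of the limma fit, 0.0115 and 0.0305, belong to the fitted differences and do not test these bounds. Cd40 was at least 1.56-fold higher than in ALA tumours (adjusted p of the fitted difference 0.0177).

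**Figure D4:**
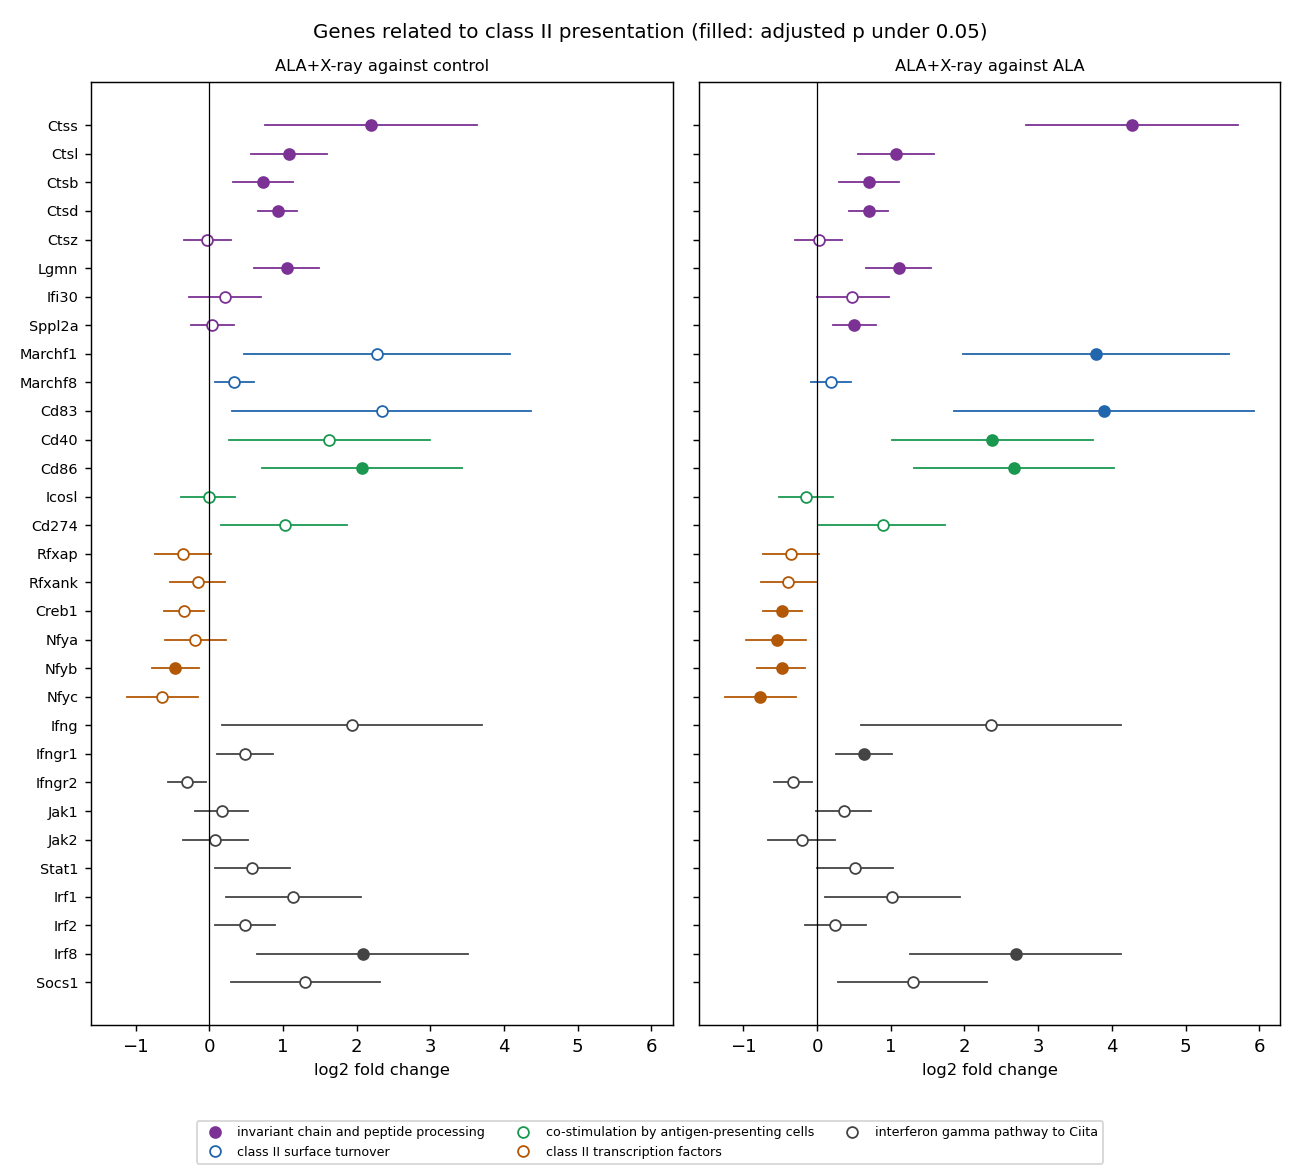
Log2 fold changes (x axis, with 95% intervals from the limma fit) of tested genes in 5 lists related to class II presentation, in ALA+X-ray against control and against ALA; filled points had an adjusted p under 0.05. Ctss, at 2.20 and 4.27, is filled in both panels, Marchf1 and Cd83 in the panel against ALA only, and the Nfy genes lie below 0; points of Cd40, Cd86 and Ifng are fitted values, not bounds.

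Of the 7 listed factors that bind class II promoters together with Ciita, 6 were tested and 0 passed as higher in ALA+X-ray against ALA or control, Rfx5 being well above background on 2 arrays. Against ALA 4 were lower, Nfyc by -0.77 (adjusted p = 0.0251), Nfya by -0.55 (0.0481), Nfyb by -0.48 (0.0334) and Creb1 by -0.47 (0.0187) on the log2 scale, and against control 1, Nfyb, at -0.46 (0.0399). Of all genes, 13.4% passed as lower against ALA and 15.1% against control. In the pathway from interferon gamma to Ciita, 2 of 10 passed as higher against ALA and 1 against control, where 10.7% and 9.77% of all genes did. They were Irf8, a myeloid transcription factor, at 2.70 (0.0136) and 2.08 (0.037), and the receptor chain Ifngr1 at 0.63 against ALA (0.0219). Against X-ray 0 of the 10 passed. These counts turned on X-ray 1: without it 6 passed as higher against ALA, 5 against control and 6 against X-ray. In that fit 11%, 10.7% and 4.85% of all genes passed as higher. Ifng itself, well above background on 5 arrays, did not pass against ALA or control (adjusted p of the fitted difference 0.0508 and 0.0975). In group means it was at least 2.00-fold higher than in ALA and at least 2.01-fold higher than in control tumours.

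On the T cell side, Cd4 and Cd28 were well above background on 0 arrays and 3 of 7 genes were tested. Lag3, an inhibitory receptor that binds class II, passed as higher against control (adjusted p = 0.0465) but was well above background on only 6 arrays. Its mean levels were -3.85 in ALA+X-ray, -3.99 in X-ray, -3.37 in ALA and -5.42 in control tumours. No fold is given because the bound was under 1, so the difference lies near background. The class I genes were compared as the other arm of presentation, 6 of 7 being tested. H2-K1, a class I heavy chain, rose by 3.41 against ALA (adjusted p = 0.00523), 2.91 against X-ray (0.0431) and 2.63 against control (0.014). In all 4 class I genes passed against ALA (H2-K1, H2-D1, B2m and Tapbp), 4 against control (H2-K1, H2-D1, Tap2 and B2m) and 1 against X-ray (H2-K1), and 4 against X-ray without X-ray 1, with H2-K1 at 3.67 (adjusted p = 0.00187). Of all genes, 10.7%, 9.77% and 1.3% passed as higher in these comparisons, and 4.85% against X-ray without X-ray 1.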

How the data were processed

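RNA from 16 tumour preparations was hybridised to one-colour Agilent arrays. Per the file headers, the deposited scanner files hold spot intensity on a linear scale, background-subtracted and detrended by Feature Extraction 10.7.3.1, with quality flags (other values) beside each spot; the submitters' processing notes name version 9.5.3.1. The authors' deposited table of values, also intensity, served as an alternative. Accessions named 26876 of the 41174 probes, current symbols 2894 and older symbols 351, and 11053 kept the file's name.

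The log2 processed signal was scaled to each array's 75th percentile over spots other than controls, outlier spots were left out and spots of a probe averaged. A probe was kept if it was well above background on 4 or more of the 16 arrays, and each gene was represented by its brightest kept probe, giving 15399 genes. Linear models with moderated variances (limma 3.58.1 in R 4.3.3, version 1.17.8 of data.table, 12 residual and 2.3 prior degrees of freedom) were fitted to 4 group means over all 16 arrays, without slide as a term. P-values were adjusted by Benjamini-Hochberg over all genes in each of 6 comparisons, at 0.05. Correlations and figures used Python 3.11.15 with numpy 2.4.6, pandas 2.3.3 and matplotlib 3.10.9. Tested on simulated data for ALA+X-ray against control with 15399 genes, the fit recovered 60%, 92%, 100% and 100% of 50 genes each changed by log2 values of 1, 2, 3 and 4, and called 6 unchanged genes. These shares do not carry over to genes of wide spread. In that comparison H2-Aa at 2.65 (SE 1.13) and Cd74 at 2.63 (SE 1.07) did not pass. The number of arrays limits the precision.

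The members and lists were chosen with earlier results of these data known. All 9 members are named with every probe; genes of the related lists are named where they passed in ALA+X-ray against control or ALA, and the 10 genes of highest correlation to the presenting chains with Cd74, leaving out clone and prediction names; the 5 for Ciita are left out, as 4 of 16 arrays carried a measured Ciita signal. Residuals of arrays with the same replicate number correlated at -0.461 to 0.540 (24 pairs) and those with different numbers at -0.601 to 0.454 (72 pairs). ALA+X-ray and control arrays of the same number correlated at 0.540, 0.0877, 0.516 and 0.406, and the other same-number pairs at -0.461 to 0.356. The number is treated as the slide, per the file headers. The main fit has no slide term, and the fit with slide as a block is an alternative. Other alternatives were a normexp background (offset 50), quantile and median scaling, the filter dropped or set at all 16 arrays, every probe kept, only the arrays compared, array weights, trend and robust moderation, each array left out and, added after seeing the data, slide 1 left out and counts of marker and related lists without X-ray 1.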

Additional observations from a re-analysis of the deposited data

Results flagged for a closer look

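In each group of 4 arrays, the gap of the highest or lowest array to its nearest neighbour was set against the group's whole range for the 8 tested class II genes. Of 32 such sets 2 had a gap share above Dixon's 95% critical value, which chance gives in about 1 of 20 sets (5%). H2-DMa in ALA tumours was -4.71 in replicate 1, where the other ALA arrays were between -3.73 and -3.67 (gap share 0.948). It was well above background on 1 ALA array only. H2-DMb1 in control tumours was 0.55 in replicate 2, where the other controls were between 0.78 and 0.81 (gap share 0.876). X-ray 1 was the highest X-ray array for all 8 genes, but the spread among the other X-ray arrays kept its gap share under the critical value. For H2-Oa it stood at -2.84, where the others were between -6.18 and -4.41.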

How the results depend on the processing

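In all fits run under the alternatives, the fitted values of the 8 genes stayed above 0 in the 3 ALA+X-ray comparisons and the interaction; in ALA against control 5 of 219 values, all of H2-Oa or Ciita, were above 0. With array weights 8 genes passed in ALA+X-ray against control, Ciita and H2-Oa among them, 6 against X-ray and 5 in the interaction. Over all genes 6442, 2165 and 2023 passed there. In ALA+X-ray against control a normexp background gave 4 and a fit on only the arrays compared 2, where 4208 and 1603 of all genes passed. With probes well above background on all 16 arrays, 3 passed against ALA, where only H2-Ab1, H2-DMb1 and Cd74 could be tested. Without slide 1 the counts were 7 against control, 8 against X-ray and 8 in the interaction, where 31.6%, 19.4% and 8.7% of all genes passed. Among the 6 genes other than Ciita and H2-Oa they were 5, 6 and 6. Leaving out each array gave 1 to 6 against control, 0 to 6 against X-ray, 2 to 8 against ALA, 0 to 0 for X-ray and for ALA against control, and 0 to 6 in the interaction. These ranges cover all 8 genes, with Ciita and H2-Oa, which entered the test only through the groups where they were high. Over all genes, the same fits gave 1954 to 5953 against control, 3 to 3135 against X-ray and 2165 to 5817 against ALA. The cause of these differences was not tested. With slide as a replicate block the counts stayed at 1 against control, 0 against X-ray, 6 against ALA and 0 in the others, so it changed no count. Over all genes, the block gave 8 genes in the interaction, against 189. Median scaling gave 2135 against control, against 3828, 1896 against ALA, against 3713, and 28 for X-ray against control, against 519; it moved the median of all genes in ALA against control to -0.12, against 0. With no filter, 11 genes passed in ALA+X-ray against X-ray, 3 in X-ray against control and 40 in the interaction. Only the arrays compared gave 1603, 1 and 1589 genes in ALA+X-ray against control, X-ray and ALA, and array weights 6442, 2165 and 6438. A normexp background gave 521 genes against X-ray. Ciita, H2-Oa and H2-Ob lie near background, which limits what can be seen of them.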
